A study of Danio rerio with 16 samples.

Results

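The 7 genes described here, of 32520 zebrafish (Danio rerio) genes counted, were chosen by a measured value, because their RNA was higher in embryos injected with a Bik-1 locked nucleic acid (LNA) than in embryos injected with a scrambled one. They are gnsb (ENSDARG00000098296), dglucy (ENSDARG00000005179), caprin2 (ENSDARG00000020749), fam83fa (ENSDARG00000038012), ube2h (ENSDARG00000000019), an ankrd34b gene (ENSDARG00000061641) and an sh2d3c gene (ENSDARG00000028099). Since the difference between knockdown and control chose them, that difference is described below with its standard error (SE) and is not tested. Tests are given for their course over developmental time within each group, and for paralogs, partner genes and neighbouring genes. The lists of partner genes were drawn up with earlier results of these data known. The tests over time use the same libraries whose values chose the genes, so they are not independent of that choice.

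An LNA is a short antisense oligonucleotide with modified sugars that bind RNA tightly. BHIKHARI is an endogenous retrovirus of the zebrafish genome that is known for its activity in the mesendoderm of the gastrula and is the target of the Bik-1 LNA. Wild-type embryos received an LNA at 0 hours post fertilization (hpf), either Bik-1 (knockdown) or scrambled (control), and polyadenylated RNA of whole embryos was sequenced at 8, 11, 14 and 18 hpf. Each of the 8 groups has 2 replicate libraries, 16 in all, with 4399855 to 7694887 counts per library. Nothing in the labels says whether the replicates came from separate clutches, so p-values measure only how far these samples spread, and that spread may be technical. With 1 LNA against BHIKHARI analysed here, an effect of the knockdown and an effect of this particular oligonucleotide cannot be told apart. In RNA of whole embryos, fewer cells of a type and less RNA per cell cannot be told apart.

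Levels are given in CPM, read counts scaled to a common library size with the trimmed mean of M values (TMM). They are compared between libraries, for 1 gene at a time or summed over a list of marker genes. Levels are never compared between genes, because the counts were not divided by gene length. In the sums, genes with more reads weigh more. The targeted repeat, BHIKHARI_LTR, was lower in the knockdown at every time, by a log2 fold change of -1.98 (8 hpf), -1.80 (11 hpf), -2.03 (14 hpf) and -1.52 (18 hpf), with adjusted p of 0.0002 or less in edgeR. One library stood apart: in knockdown 8 hpf replicate 1, 3 unnamed genes took up 4.83% of counts, against at most 0.2% in any other library. Chi-square values were 3.72 to 31.8 per degree of freedom between the 2 libraries of a group, so replicates spread beyond counting noise. The highest value was that of knockdown 8 hpf. It includes the 3 unnamed genes, and their part in it was not separated.

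The genes belong to different processes. The product of gnsb is a lysosomal sulfatase that removes sulfate from N-acetylglucosamine during the breakdown of heparan sulfate, and the product of dglucy is a mitochondrial D-glutamate cyclase, known from mouse. Caprin2 is an RNA-binding protein that, in human cells and zebrafish embryos, promotes phosphorylation of the Wnt co-receptor LRP6. Fam83fa belongs to the FAM83 scaffolds, which bind casein kinase 1, and human FAM83F has been linked to Wnt signalling. Ube2h is a ubiquitin-conjugating enzyme that works with the CTLH ubiquitin ligase. SH2D3C is an adaptor with an SH2 domain that joins Eph receptors to CAS proteins, as described in mammals. ANKRD34B is an ankyrin-repeat protein.

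All 7 genes passed the filter on low counts, which asked for at least 1.64 CPM by library total in 2 or more libraries. For ankrd34b that minimum was met in 4 knockdown libraries and in 0 control libraries, so the gene was tested only because it was high in the knockdown. It is also the gene with the fewest reads, 79 in the 8 knockdown libraries and 19 in the 8 controls. The reads of ube2h were the most numerous, 4577 in knockdown libraries and 3460 in controls, and for the other 5 genes the sums over all 16 libraries lay between 241 (caprin2) and 979 (gnsb).

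Averaged over the 4 times, the log2 fold change of knockdown over control was 1.36 for gnsb (SE 0.27), 1.24 for dglucy (SE 0.20), 1.16 for caprin2 (SE 0.26) and 1.02 for fam83fa (SE 0.24). It was 0.99 for sh2d3c (SE 0.22) and 0.42 for ube2h (SE 0.10). These sizes follow from how the genes were chosen and are given as a description. Each knockdown library lay above the control of its time and number for 6 of the 7 genes (gnsb in 7 of 8 comparisons), as for 3.13% of all genes. This count comes from the difference that chose the genes, and nothing is read from it.

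**Figure D1:**
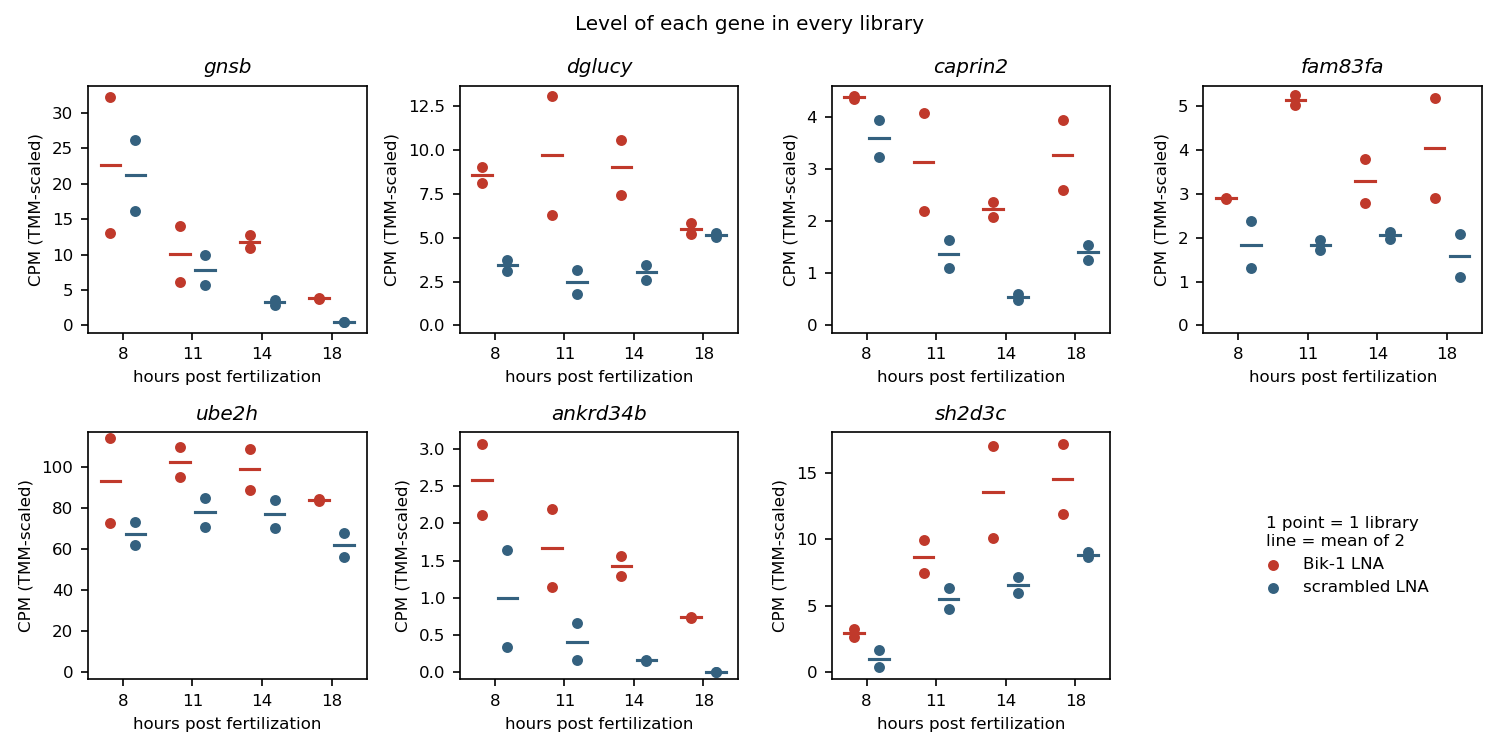
Each panel plots 1 gene, with hours post fertilization on the x axis and TMM-scaled CPM on a linear y axis; each point is 1 library, knockdown (Bik-1 LNA) left of control (scrambled LNA), and each line is the mean of 2 libraries. The 8 knockdown libraries of fam83fa lie between 2.8 and 5.26 CPM and its 8 controls between 1.1 and 2.38 CPM, whereas gnsb overlaps at 8 and 11 hpf and separates at 14 and 18 hpf.

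The lysosomal gene gnsb had similar levels in both groups at the 2 earlier times and a higher level in the knockdown at the 2 later ones. At 8 hpf it stood at 32.2 and 13.0 CPM in the knockdown libraries and at 26.2 and 16.2 CPM in the controls. The 11 hpf libraries held 6.17 and 14.1 CPM in the knockdown and 5.71 and 9.93 CPM in the controls. At both of these times the groups overlapped, and the spread between replicates was larger than the difference between means. By 14 hpf the levels were 12.7 and 10.9 CPM in the knockdown against 3.61 and 2.89 CPM in controls. At 18 hpf they were 3.78 and 3.89 CPM against 0.44 and 0.418 CPM. From 14 hpf onward both knockdown libraries lay above both controls. The log2 fold change of knockdown over control was 0.09 (SE 0.41) at 8 hpf, 0.39 (SE 0.44) at 11 hpf, 1.85 (SE 0.49) at 14 hpf and 3.11 (SE 0.76) at 18 hpf. The last value rests on 47 reads in the knockdown and 5 in controls, a ratio of 8.97 with an exact 95% counting interval of 3.59 to 28.9, which covers counting error only. Knockdown embryos at 18 hpf had a gnsb level near that of controls at 14 hpf.

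Without knockdown 8 hpf replicate 1 the 8 hpf difference of gnsb turned to -0.71, without control 8 hpf replicate 2 to -0.22, and without knockdown 11 hpf replicate 2 the 11 hpf difference turned to -0.34. At 8 and 11 hpf the direction thus rested on single libraries, and gnsb was higher beyond the spread between replicates at 14 and 18 hpf only.

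The other metabolic gene, dglucy, was high in the knockdown at the 3 earlier times. Knockdown libraries held 9.04 and 8.12 CPM at 8 hpf, against 3.11 and 3.74 CPM in controls. At 11 hpf they held 6.33 and 13.1 CPM, against 1.8 and 3.15 CPM. The 14 hpf values were 10.6 and 7.45 CPM in the knockdown and 3.45 and 2.59 CPM in controls. The groups did not overlap at any of these times, but at 11 hpf the knockdown libraries differed more from each other than the lower one did from the higher control. At 18 hpf the levels met, at 5.82 and 5.19 CPM in the knockdown and 5.28 and 5.02 CPM in controls, and the groups overlapped. Log2 fold changes of dglucy were 1.32 (SE 0.41), 1.97 (SE 0.41), 1.57 (SE 0.41) and 0.10 (SE 0.40) at 8, 11, 14 and 18 hpf. The 11 hpf value lay between 1.34 (knockdown replicate 2 left out) and 2.44 (control replicate 2 left out) with 1 library fewer.

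For caprin2 the difference was smallest at 8 hpf. The knockdown libraries held 4.34 and 4.39 CPM then, and the controls 3.93 and 3.23 CPM. At 11 hpf caprin2 stood at 4.06 and 2.2 CPM in the knockdown against 1.63 and 1.1 CPM in controls. The lowest control levels came at 14 hpf, 0.492 and 0.609 CPM, where the knockdown libraries had 2.37 and 2.08 CPM. The 18 hpf libraries held 3.93 and 2.59 CPM in the knockdown and 1.54 and 1.26 CPM in controls. Both knockdown libraries were above both controls at each of the 4 times. At 11 and 18 hpf they differed more from each other than the lower one did from the higher control. At 8 hpf the controls differed more from each other than the lower knockdown library did from the higher control. The log2 fold change was 0.28 (SE 0.45) at 8 hpf, 1.17 (SE 0.50) at 11 hpf, 1.97 (SE 0.60) at 14 hpf and 1.24 (SE 0.50) at 18 hpf. Leaving out 1 library moved the 11 hpf value to between 0.68 (knockdown replicate 1 left out) and 1.56 (knockdown replicate 2 left out). These values rest on few reads, 23 in the knockdown and 7 in controls at 14 hpf.

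For fam83fa every knockdown library was above every control library, whatever its time. At 8 hpf the knockdown had 2.89 and 2.92 CPM and the controls 1.31 and 2.38 CPM. At 11 hpf the levels were 5.03 and 5.26 CPM in the knockdown against 1.96 and 1.73 CPM in controls. The 14 hpf libraries held 2.8 and 3.81 CPM in the knockdown and 2.13 and 1.98 CPM in controls. At 18 hpf fam83fa stood at 2.91 and 5.19 CPM in the knockdown and at 1.1 and 2.09 CPM in controls. At 14 and 18 hpf its knockdown libraries differed more from each other than the lower one did from the higher control. At 8 hpf its controls differed by more than that gap between the groups. Complete separation of 8 knockdown from 8 control libraries was found for 5 of 16894 genes (0.0296%), a pattern close to the one for which the gene was chosen. Its log2 fold changes were 0.65 (SE 0.50), 1.47 (SE 0.47), 0.69 (SE 0.49) and 1.27 (SE 0.49) in order of time. The 8 hpf value moved to 0.27 and 1.14 when control replicate 1 or 2 was left out. The 18 hpf value moved to 1.64 and 0.81 when knockdown replicate 1 or 2 was left out, and to 1.84 when control replicate 2 was, so the order of the times is not settled.

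The most deeply counted of the genes, ube2h, showed the smallest relative difference of the 6 genes with an average given above, although at single times gnsb, dglucy and caprin2 had smaller ones. At 8 hpf it had 113.9 and 72.4 CPM in the knockdown and 72.9 and 61.7 CPM in controls, and the groups overlapped. The 11 hpf values were 109.7 and 95.1 CPM in the knockdown against 85 and 70.8 CPM in controls. At 14 hpf the knockdown held 108.6 and 88.9 CPM and the controls 83.8 and 70.0 CPM. At 11 and 14 hpf the groups did not overlap, but the gap between them was smaller than the spread between replicates of either group. At 18 hpf the levels were 84.3 and 83.6 CPM against 67.9 and 56.1 CPM. The log2 fold change stayed between 0.36 (14 hpf) and 0.47 (8 hpf), each with an SE of 0.19, and averaged 0.42 (SE 0.10), which is 1.33-fold. Without knockdown 8 hpf replicate 1, the library that stood apart, the 8 hpf value of ube2h was 0.10, and without knockdown replicate 2 of that time it was 0.75.

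The adaptor gene sh2d3c rose with time in both groups while its knockdown level stayed higher. At 8 hpf it stood at 3.25 and 2.6 CPM in the knockdown and at 1.64 and 0.34 CPM in controls. Levels at 11 hpf were 7.46 and 9.91 CPM in the knockdown against 4.73 and 6.31 CPM in controls. In the 14 hpf samples the knockdown had 10.1 and 17 CPM and the controls 5.91 and 7.15 CPM. At 18 hpf the knockdown libraries held 11.9 and 17.2 CPM, against 9.01 and 8.65 CPM. At 11, 14 and 18 hpf they differed more from each other than the lower one did from the higher control. At 8 hpf the controls differed by more than that gap between the groups. Groups did not overlap at any time, and the log2 fold changes were 1.53 (SE 0.56), 0.66 (SE 0.40), 1.06 (SE 0.39) and 0.72 (SE 0.38) at 8, 11, 14 and 18 hpf. The 8 hpf value of sh2d3c moved to 3.01 when control replicate 1 was left out and to 0.82 when control replicate 2 was.

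The ankyrin-repeat gene ankrd34b was near the limit of detection in controls. At 8 hpf it had 17 and 13 reads in the knockdown libraries (3.07 and 2.11 CPM) and 10 and 2 reads in controls (1.64 and 0.34 CPM). At 11 hpf the counts were 7 and 18 reads in the knockdown and 4 and 1 in controls. At 14 hpf they were 6 and 9 reads against 1 and 1, a ratio of 9.12 with an exact 95% counting interval of 2.12 to 82.2. Both knockdown libraries were above both controls at every time. At 8 and 11 hpf they differed more from each other in CPM than the lower one did from the higher control. At 18 hpf 5 and 4 reads were counted in the knockdown and 0 in both controls. With 3 reads over the control group in place of 0, ankrd34b was 2.86-fold higher at 18 hpf. That value allows for counting error in the controls only. The knockdown reads enter it as counted, so it is no full lower bound. The log2 fold change was 1.36 (SE 0.74) at 8 hpf and moved to 2.84 without control replicate 1 and to 0.65 without control replicate 2 of that time. At 11 hpf it was 2.02 (SE 0.85), with 1.35 to 3.27 when 1 library was left out (control replicate 2 or 1). Its fitted average depends on the constant added to the 0 counts and is not given as a size.

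**Figure D2:**
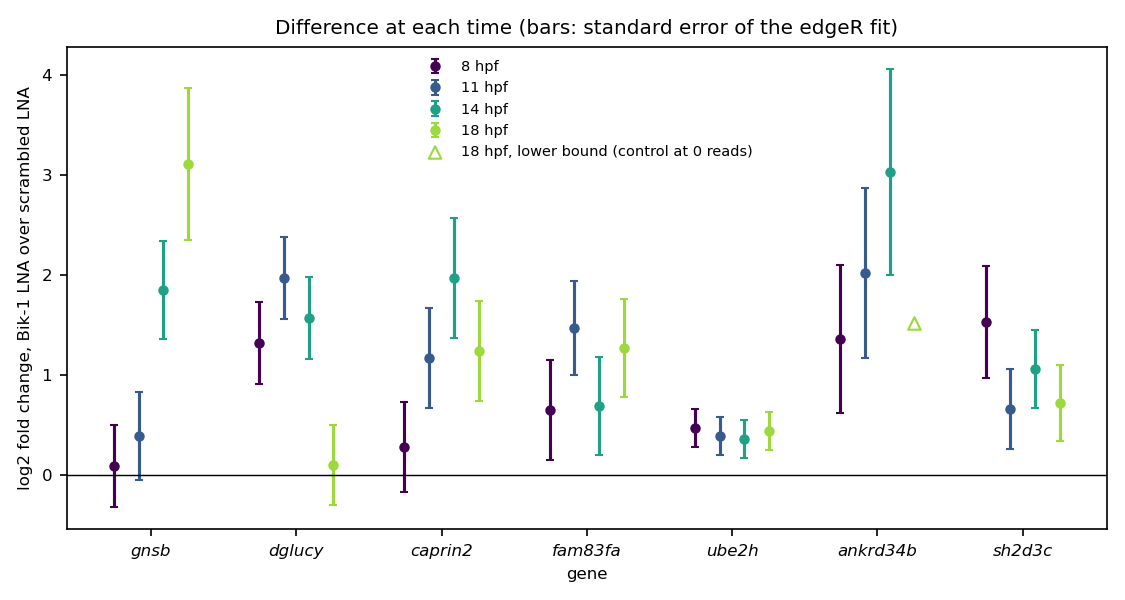
Log2 fold change of knockdown over control (y axis) for each gene (x axis) at 8, 11, 14 and 18 hpf, with bars for the SE of the edgeR fit. The open triangle, for ankrd34b at 18 hpf, puts 3 reads in place of the 0 in controls. It allows for counting error in the controls only. The difference of gnsb lies near 0 at 8 hpf and at 3.11 at 18 hpf, that of dglucy is at 0.10 at 18 hpf, and that of ube2h stays between 0.36 and 0.47.

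Both knockdown libraries lay above both controls for 5 of the 7 genes at 8 hpf, where 16.7% of all genes tested did, for 6 at 11 hpf (13.4% of all genes), for all 7 at 14 hpf (21.9%) and for 6 at 18 hpf (20.6%). Separation at all 4 times was found for 4 of the 7, caprin2, fam83fa, ankrd34b and sh2d3c, and for 90 of 16894 genes (0.533%). Dglucy and ube2h separated at 3 times, which makes 6 of 7 at 3 or more times against 4.29% of all genes, and gnsb separated at 2. These counts come from the contrast that chose the genes, and nothing is read from them. The median log2 fold change over all genes tested was 0.013 on average over the times.

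The course of these genes over time was tested in the control libraries, whose embryos received the scrambled LNA. Uninjected embryos were not among the libraries. The edgeR contrasts between times were adjusted over all 17756 genes and repeat families tested. From 8 to 18 hpf 3 of the 7 genes, ankrd34b among them, fell and 1 rose, while 26.7% of all genes tested fell and 34.6% rose (61.3% together). Gnsb fell to 0.429 ± 0.0151 CPM at 18 hpf, against 21.2 ± 7.11 CPM at 8 hpf (mean ± SD, n = 2), a log2 change of -5.57 (SE 0.66; adjusted p = 3.3e-06 in edgeR). Caprin2 fell by 1.36 in log2 units (SE 0.50; adjusted p = 0.027 in edgeR), to 1.4 ± 0.201 CPM against 3.58 ± 0.495 CPM at 8 hpf. Its call was lost in DESeq2 (adjusted p = 0.078), without the filter on low counts (adjusted p = 0.063), without control 8 hpf replicate 1 (adjusted p = 0.1) and without either control library of 18 hpf (adjusted p = 0.059 and 0.14). Ankrd34b fell to 0 reads (adjusted p = 0.0073 in edgeR), a call that was lost when control 8 hpf replicate 1 or control 18 hpf replicate 2 was left out. With 3 reads in place of 0 at 18 hpf, the fall from 8 hpf was 3.91-fold. That value leaves out the counting error of the 8 hpf reads. Because ankrd34b passed the filter on low counts through knockdown libraries only, its call is a description and is not read as a result. Sh2d3c rose by 3.12 (SE 0.50, adjusted p = 6.1e-05 in edgeR), to 8.83 ± 0.26 CPM at 18 hpf against 0.989 ± 0.917 CPM at 8 hpf. The size of that rise was 4.60 when control 8 hpf replicate 1 was left out and 2.41 when replicate 2 was, and the call held in both.

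The other 3 genes did not pass between 8 and 18 hpf in controls. The log2 fold change was 0.58 for dglucy (SE 0.42, adjusted p = 0.24), for fam83fa it was -0.15 (SE 0.53, adjusted p = 0.82) and for ube2h -0.12 (SE 0.19, adjusted p = 0.6), all in edgeR.

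Successive steps were tested as well. Between 8 and 11 hpf 2 of the 7 genes fell (12.1% of all genes tested) and 1 rose (19.2% of all genes, 31.3% together). Gnsb fell by 1.43 (SE 0.44, adjusted p = 0.021 in edgeR) and caprin2 by 1.38 (SE 0.50, adjusted p = 0.044 in edgeR). Sh2d3c rose by 2.45 (SE 0.52, adjusted p = 0.0021 in edgeR). The caprin2 call is near the threshold and rests on 17 control reads at 11 hpf. Calls of single genes between 8 and 11 hpf, and between 14 and 18 hpf, were not checked in alternative runs. No gene of the 7 was called between 11 and 14 hpf in edgeR or in DESeq2, where edgeR called 2.74% of all genes (2.05% higher, 0.693% lower). The number with an unadjusted p under 0.05 was 1 in each tool, and DESeq2 gave an adjusted p for 6 of the 7. The share of all genes at that unadjusted p was not counted for this step, so nothing is read from this number. In edgeR gnsb moved by -1.27 (SE 0.50, adjusted p = 0.23) and caprin2 by -1.28 (SE 0.62, adjusted p = 0.36). Between 14 and 18 hpf gnsb fell again (log2 fold change -2.87, SE 0.77, adjusted p = 0.024 in edgeR), where 3.93% of all genes fell and 8.05% rose. That gnsb call rests on 41 control reads at 14 hpf and 5 at 18 hpf. Caprin2 stood at 0.55 ± 0.0823 CPM at 14 hpf and at 1.4 ± 0.201 CPM at 18 hpf, a difference of 1.29 (SE 0.62, adjusted p = 0.2 in edgeR) that did not pass.

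In knockdown embryos the same span was tested in the same fit. Of the 7 genes, 1 fell from 8 to 18 hpf (25% of all genes tested) and 1 rose (34.1%; 59.1% together). Gnsb fell by 2.55 (SE 0.47, adjusted p = 0.00027 in edgeR), to 3.84 ± 0.0785 CPM against 22.6 ± 13.6 CPM at 8 hpf (mean ± SD, n = 2). Sh2d3c rose by 2.31 (SE 0.42, adjusted p = 0.00021 in edgeR), to 14.6 ± 3.76 CPM against 2.93 ± 0.464 CPM. Ankrd34b stood at 0.734 ± 0.0101 CPM at 18 hpf and 2.59 ± 0.68 CPM at 8 hpf and did not pass in edgeR (log2 fold change -1.79, SE 0.77, adjusted p = 0.057), although it did without control 8 hpf replicate 1 (adjusted p = 0.043) or replicate 2 (adjusted p = 0.041). Because ankrd34b passed the filter on low counts through knockdown libraries, these values of it are a description only. For caprin2 the log2 value was -0.41 (SE 0.45, adjusted p = 0.45 in edgeR). That a gene passed in controls and not in knockdown embryos does not show a different course; the difference between the courses is made of the same values that chose the genes and was not tested.

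**Figure D3:**
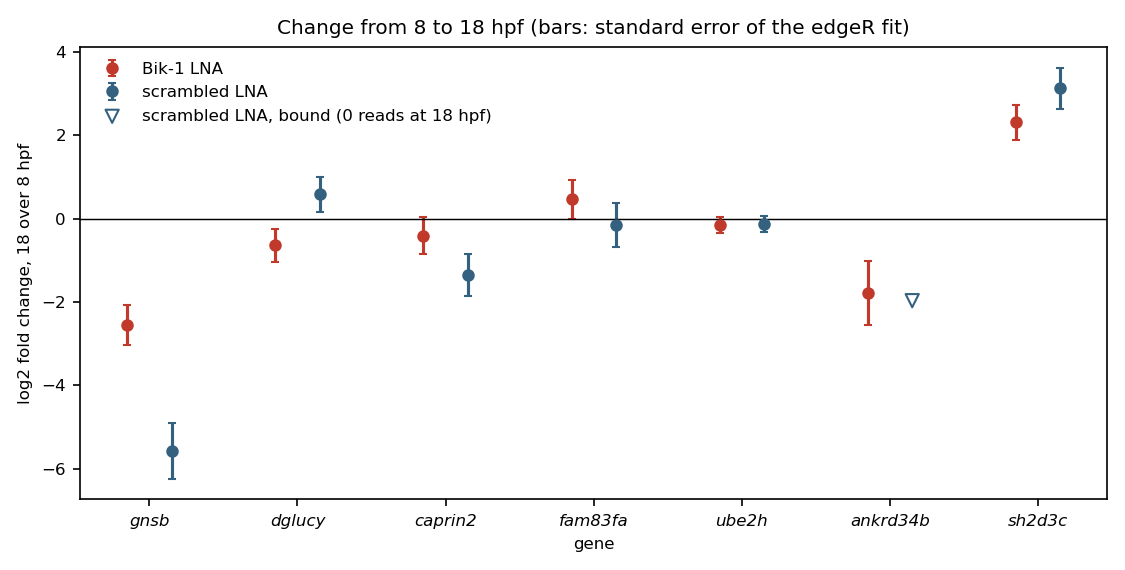
Log2 fold change from 8 to 18 hpf (y axis) for each gene (x axis), knockdown left of control, with bars for the SE of the edgeR fit. The open triangle marks ankrd34b in controls, with 3 reads in place of the 0 at 18 hpf. Gnsb lies at -2.55 in the knockdown and -5.57 in controls, sh2d3c lies above 0 in both groups, and ube2h lies near 0 in both.

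Levels of different times can be set side by side. Gnsb had 11.8 ± 1.27 CPM in knockdown embryos at 14 hpf, between the control levels of 8 hpf (21.2 ± 7.11 CPM) and 11 hpf (7.82 ± 2.98 CPM). Sh2d3c had 8.69 ± 1.73 CPM in knockdown embryos at 11 hpf, close to the control level of 18 hpf, 8.83 ± 0.26 CPM (mean ± SD, n = 2). For dglucy all 6 knockdown libraries of 8, 11 and 14 hpf were above its highest control of any time, 5.28 CPM.

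Paralogs of caprin2 and fam83fa were not called between knockdown and control. The pair listed as CAPRIN1, RNA-binding proteins of stress granules, stood at -0.01 (ENSDARG00000009346, SE 0.05, adjusted p = 1 in edgeR) and 0.04 (ENSDARG00000054272, SE 0.07, adjusted p = 0.85 in edgeR). Fam83fb was counted at 0 to 1.76 CPM, with a difference of 0.25 (SE 0.63, adjusted p = 0.9 in edgeR), too uncertain to be set against fam83fa. The second ANKRD34B row (ENSDARG00000077086) had 0 reads in all 16 libraries and the second SH2D3C row (ENSDARG00000104555) 7 reads, so for these pairs nearly all counted reads lay on the described gene. How reads shared by paralogs were assigned is not given in the sources used here. None of these differences between paralogs was itself tested.

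Partner and pathway genes of the 7 were read, in 8 lists, on the average over the 4 times, where 0.343% of all genes tested were called higher and 1.32% lower (1.66% in either direction), and 52.4% were above 0. The share of all genes with an unadjusted p under 0.05 was not counted. Such counts in the lists below therefore stand without a background, and nothing is read from them. Around fam83fa, the list of FAM83 scaffolds and casein kinase 1 had 12 tested members, 0 of them called in edgeR. Of these, 5 had an unadjusted p under 0.05, all higher, and 12 of 12 were above 0 with a median of 0.23, or 0.22 without the 1 member that had a group at 0 reads. DESeq2 also called 0, with 3 at an unadjusted p under 0.05, and gave an adjusted p for 10 of the 12. Around caprin2, the list running from the Wnt receptors to the TCF factors had 2 of 22 members lower and 0 higher, with a median of 0.02. GSK3B (ENSDARG00000017803), the kinase of the beta-catenin destruction complex, fell by 0.49 (SE 0.08, adjusted p = 0.0044 in edgeR), with 34.7 and 30.7 CPM in the knockdown against 64.8 and 70.2 CPM in controls at 8 hpf. The repressor tcf7l1b fell by 0.51 (SE 0.09, adjusted p = 0.0051 in edgeR), with 42.5 and 54.2 CPM against 87.8 and 113.9 CPM at 8 hpf. The libraries of GSK3B did not overlap at any time, with 124.3 and 124.2 CPM against 129.1 and 137.5 CPM at 18 hpf. Those of tcf7l1b overlapped at 18 hpf only, with 58.0 and 58.9 CPM against 53.9 and 73.2 CPM. The share of all genes lower without overlap was not counted. Both calls were lost over 11, 14 and 18 hpf alone. The caprin and stress granule list had 1 of 12 members lower and 0 higher, FXR2, an RNA-binding protein of the fragile X family, at -0.23 (SE 0.05, adjusted p = 0.04 in edgeR). That call held in 7 of 21 alternatives.

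Around ube2h, 1 of 13 members of the CTLH list was lower and 0 were higher. GID8 (1 of 2 genes of that symbol, ENSDARG00000037589), a scaffold subunit of the ligase, fell by 0.59 (SE 0.07, adjusted p = 0.00046 in edgeR). At 8 hpf it stood at 101.4 and 102.5 CPM in the knockdown against 275.4 and 269.5 CPM in controls. At 18 hpf it stood at 49.4 and 44.3 CPM against 49.9 and 51.2 CPM, so the groups were far apart in the gastrula and nearly met at the last time. Its call was lost over 11, 14 and 18 hpf alone (adjusted p = 0.12). The other 12 members were not called, and the list median was 0.05.

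Around gnsb, none of 17 genes of lysosomal glycosaminoglycan breakdown was called in edgeR or DESeq2, 1 had an unadjusted p under 0.05 in each, and 15 were above 0 with a median of 0.13 and a highest value of 0.58. Around dglucy, 1 of 15 genes of glutamate and D-amino acid metabolism was lower (2 in DESeq2) and none higher, with a median of 0.01. The lower one was GGCT, which releases 5-oxoproline from gamma-glutamyl peptides, at -1.05 (SE 0.24, adjusted p = 0.035 in edgeR). It had 4.52 and 3.12 CPM in the knockdown and 8.86 and 11.1 CPM in controls at 14 hpf, and its call held in 8 of 21 alternatives. Around sh2d3c, none of 16 CAS and Eph partners was called in edgeR or DESeq2, 1 had an unadjusted p under 0.05 in each, and the median was -0.02. The list of other ANKRD34 genes held no tested member.

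**Figure D4:**
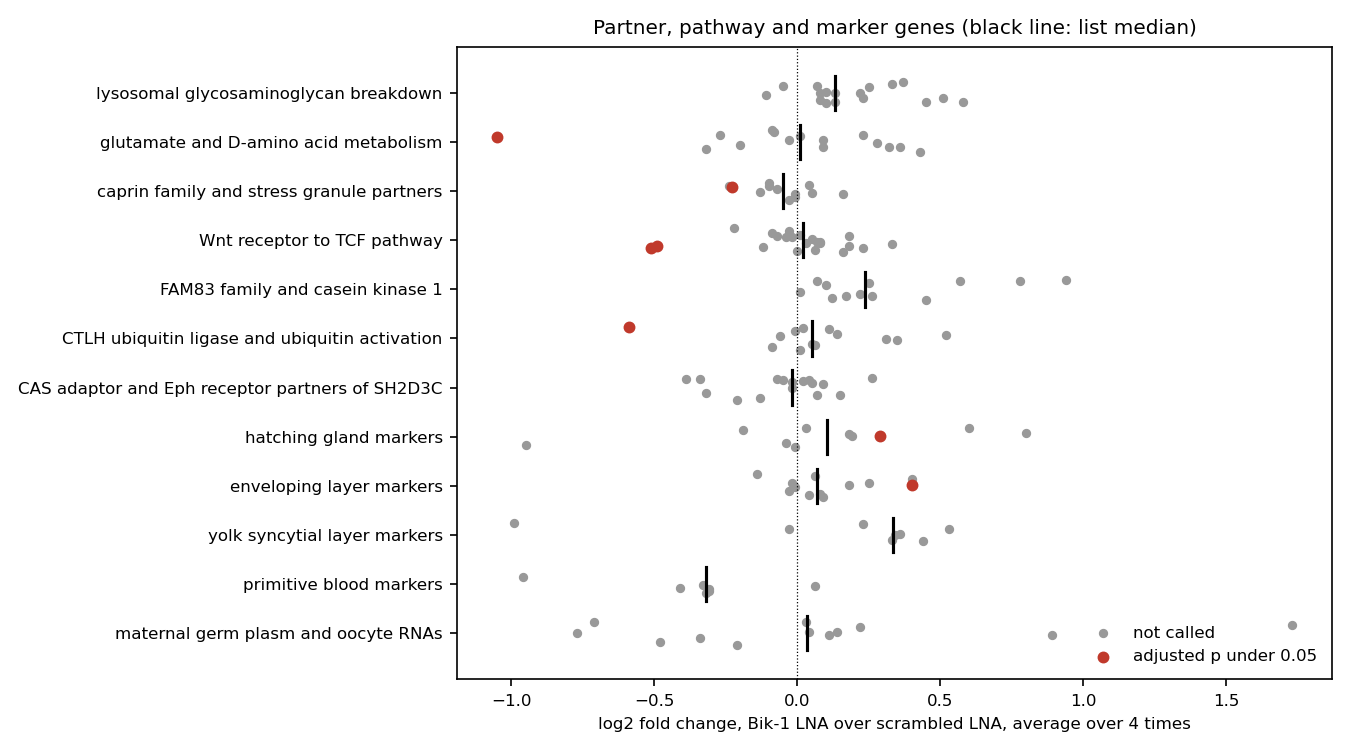
Log2 fold change of knockdown over control, averaged over the 4 times (x axis), for each tested member of the partner, pathway and marker lists (rows); red points passed an adjusted p under 0.05 in edgeR, grey points did not, and black lines are list medians. The red points of the Wnt, CTLH, caprin and glutamate lists lie to the left of 0, and those of the hatching gland and enveloping layer markers to the right.

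Markers of embryonic tissues and maternal RNAs were read in the same way, since the RNA came from whole embryos. Hatching gland markers, the tissue in which fam83fa has been described in zebrafish, summed to 429.2 to 489.4 CPM in the knockdown and 348.9 to 398.4 CPM in controls at 18 hpf, and to 562.0 to 605.3 CPM against 516.4 to 584.8 CPM at 11 hpf, where the groups overlapped. The sums did not overlap at 8 hpf, with 688.7 to 712.5 CPM against 598.8 to 660.7 CPM, nor at 14 hpf. Of the 10 members 6 were above 0, with a median of 0.11 (also without the 2 members that had a group at 0 reads), and by unadjusted p under 0.05 in edgeR 2 were higher and 1 lower. After adjustment 1 member was called, XBP1, a transcription factor of secretory cells, which rose by 0.29 (SE 0.05, adjusted p = 0.011 in edgeR). XBP1 alone held 346.2 and 341.6 CPM of the 8 hpf sums in the knockdown and 278.7 and 298.2 CPM in controls. It missed the threshold when control 18 hpf replicate 2 was left out, and over 11, 14 and 18 hpf alone (adjusted p = 0.052 in both). The 12 maternal oocyte and germ plasm RNAs tested had none called in edgeR or DESeq2, 1 with an unadjusted p under 0.05 in each, and a median of 0.03; DESeq2 gave 8 of them an adjusted p. At 18 hpf they summed to 13.2 to 21.5 CPM in the knockdown against 21.5 to 22.6 CPM in controls, and at 14 hpf to 25.3 to 39.6 CPM against 36.7 to 38.9 CPM. In the enveloping layer list 1 of 12 rose, the keratin krt18a.1, by 0.40 (SE 0.05, adjusted p = 0.0013 in edgeR). The median of that list was 0.07, with 8 of 12 above 0, and its summed CPM overlapped between the groups at all 4 times. Of 8 yolk syncytial layer genes none was called in edgeR (1 with an unadjusted p under 0.05) or DESeq2 (3), and the median was 0.33 (0.34 without the gene that had a group at 0 reads), with sums of 2846.2 to 3473.3 CPM in the knockdown against 2095.9 to 2245.8 CPM in controls at 18 hpf. At 14 hpf these sums did not overlap either, with 2627.4 to 3212.3 CPM against 2261.2 to 2601.5 CPM. At 8 and 11 hpf they overlapped. Of 7 blood genes none was called or had an unadjusted p under 0.05 in edgeR or DESeq2, 1 was above 0, and the median was -0.32 (-0.31 without the 4 that had a group at 0 reads). At 8 hpf 4 of the 8 matched blood genes had 0 reads in the knockdown and 3 in controls, and in each other group and list at most 2 matched genes had 0 reads in both libraries. The part of these cell types in the 7 differences was not tested.

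Genes next to the described ones were read from the order of protein-coding genes in RefSeq, on the GRCz12tu assembly. The lookup gave 5 of the 7 genes a place, since ankrd34b and sh2d3c have a pair of candidates each. Of the 20 nearest neighbours, 2 on each side, 14 were tested, with a median log2 fold change of 0.07 and a range of -0.12 to 0.63. Of these 1 was called, btg1, a suppressor of proliferation that lies beside caprin2, at 0.25 (SE 0.06, adjusted p = 0.035 in edgeR), a call that held in 8 of 21 alternatives. The tested neighbours of gnsb, dglucy, fam83fa and ube2h were not called in edgeR. On this contrast 1.66% of all genes tested were called in either direction. By unadjusted p under 0.05 in edgeR 3 of the 14 passed, btg1 among them, all higher. The share of all genes at that unadjusted threshold was not counted, so nothing is read from this number.

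The genes whose level was most like each of the 7 over the 16 libraries were found by Pearson's r of log2 CPM among 15318 genes with a symbol and a mean of at least 1 CPM. The libraries share times and treatments, so r describes a common pattern and carries no p. The pattern of gnsb was closest to KLF9 (r = 0.951), DXO (0.939) and ZDHHC3 (0.939), genes that had log2 fold changes of -4.08, -2.64 and -1.73 from 8 to 18 hpf in controls. For sh2d3c the closest were PSMC1 (0.976), NOTCH3 (0.962) and si:dkey-24l11.2 (0.959). Dglucy resembled sprtn (0.889), appl2 (ENSDARG00000100151, 0.833) and relb (0.798). The closest to caprin2 were casp8, a caspase that starts apoptosis downstream of death receptors (0.866), GADD45A (ENSDARG00000043581, 0.835) and a clone-named gene (ENSDARG00000008906, 0.831). Fam83fa had the weakest likeness of the 7, to PCYT1A (ENSDARG00000011233, 0.764), rnf168 (0.739) and zgc:158320 (0.708). Ube2h was closest to vwa5a (0.864), fetub (0.864) and ugt1b3 (0.854), and ankrd34b to si:ch211-24o8.4 (0.871), si:ch1073-164k15.3 (0.868) and si:dkey-85n7.7 (0.863). These genes were picked for their likeness to genes chosen on the knockdown, so their own difference between knockdown and control is not read.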

How the data were processed

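The authors deposited raw read counts, whole numbers per Ensembl gene and repeat family. STAR and GRCz11 are named in the submitters' processing notes, while the counter, the strand option and the handling of shared reads were not given in the sources used here. Libraries were made with a directional kit, per the labels' protocols. Counts of 16894 genes and 862 families that passed filterByExpr were fitted with edgeR 4.0.16 (R 4.3.3; TMM, robust quasi-likelihood, 1 mean per group, 8 residual degrees of freedom). Benjamini-Hochberg adjustment ran over all 17756 features, and calls are at 0.05. The SE is the absolute log2 fold change divided by the square root of its edgeR F statistic, since the fit itself prints none. Its median was 0.34 at 1 time and 0.17 on average over the 4 times. Alternatives were DESeq2 1.42.0, RLE scaling, no filter, a replicate block, 11 to 18 hpf alone and leaving out each library. The code was tested on simulated data. The 7 genes and the 14 lists of partners, pathways and markers were chosen with earlier results of these data known. Of 204 listed symbols 186 matched a gene, some only by the capitalised symbol the table uses, and 173 were tested. Named list members are the up to 3 called ones with the lowest p, no list member without a call being named. For each of the 7 genes the paralogs, the called neighbours and the 3 genes most like it (highest Pearson's r) are also named. One list and 1 paralog are not reported here. The replicates' deviations correlated between knockdown and control libraries of the same number by 0.322, 0.496, 0.155 and 0.0722 at 8, 11, 14 and 18 hpf.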

Additional observations from a re-analysis of the deposited data

How the results depend on the processing

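Over the 7 genes the average difference between knockdown and control kept its direction in every alternative run. The genes were chosen for this difference in the same libraries, so its kept direction is a description and no check of it. Leaving out single libraries gave log2 fold changes of 1.16 to 1.48 for gnsb, 1.08 to 1.36 for dglucy, 1.04 to 1.26 for caprin2, 0.91 to 1.16 for fam83fa, 0.32 to 0.48 for ube2h and 0.81 to 1.36 for sh2d3c. Over 11, 14 and 18 hpf alone the value of caprin2 was 1.46. At single times gnsb reversed, to -0.71 (8 hpf, without knockdown replicate 1), -0.22 (8 hpf, without control replicate 2) and -0.34 (11 hpf, without knockdown replicate 2). Its full range was -0.71 to 0.60 at 8 hpf and -0.34 to 0.84 at 11 hpf. The number of genes called on average, 281, was 1038 with no filter, 427 in DESeq2, 2034 with a replicate block, 55 over 11, 14 and 18 hpf alone and 137 (without control 18 hpf replicate 2) to 982 (without knockdown 11 hpf replicate 1) when single libraries were left out. Higher ones were 58 of the 281, and 485 with no filter, 102 in DESeq2, 954 with a replicate block and 12 over 11, 14 and 18 hpf alone. Between 11 and 14 hpf in controls 463 genes were called, 1209 with no filter and 94 (without control 14 hpf replicate 2) to 777 (without knockdown 11 hpf replicate 2) when single libraries were left out. Leaving out single libraries gave 2761 to 5744 genes between 8 and 11 hpf, 639 to 2465 between 14 and 18 hpf, and for 8 to 18 hpf 8332 to 10634 in controls and 8019 to 10289 in the knockdown. The replicate numbers are not known to pair the samples. The causes of these changes were not tested. With 0 to 51 reads per group behind the differences of ankrd34b and caprin2, depth limits what their single-time values can show.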
